A study of Mus musculus with 32 samples.

Results

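Open chromatin was described around 8 genes that write, keep, recognise or remove DNA methylation in mouse fibroblasts undergoing reprogramming to pluripotency. The genes were Tet1, Tet2 and Tet3, the maintenance pair Dnmt1 and Uhrf1, the de novo enzymes Dnmt3a and Dnmt3b, and their cofactor Dnmt3l. Peaks of the 15 deposited ATAC-seq lists were merged where they overlapped by at least 1 bp, and a merged site was assigned to a gene when its centre lay in the gene body or within 50 kb of it in GRCm38. This gave 248 sites of 276187 in all, built from 2053 of 1866714 deposited peaks. Of the 248 sites, 109 lay in a gene body of the 8 genes, and 22 lay within 1 kb of the start of another gene only. The nearest protein-coding gene was the assigned one for 138 sites (55.6%), so a site is described here as near a gene and not as its regulator.

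DNA methyltransferases add a methyl group to cytosine, mostly where it is followed by guanine (a CpG). Dnmt3a and Dnmt3b set new methylation, Dnmt3l helps them without being an active enzyme, and Dnmt1 copies existing marks after replication, guided by Uhrf1, which binds hemimethylated CpGs. Tet enzymes oxidise 5-methylcytosine, the first step of active demethylation, and vitamin C is known to raise their activity. Embryonic stem cells are known to express Tet1, Tet2, Dnmt3b and Dnmt3l strongly, while Tet3 is known from the oocyte, the zygote and many differentiated tissues.

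The cells were embryonic fibroblasts (MEFs) transduced with the factors Klf4, c-Myc, Oct4 and Sox2 (OSKM) and kept in stem cell medium with vitamin C, so that all reprogramming groups shared a cofactor of the Tet enzymes. MEFs of the OG2 line were named in the protocols; OG2 cells carry a reporter of Pou5f1 (Oct4). The 32 samples formed 15 groups with 1 deposited list each. CTCF shRNA and control shRNA (against luciferase) were compared in cells at day 0, in Thy1+ cells (3 samples per shRNA, from days 3, 6 and 9), in cells with neither marker (SSEA1-Thy1-) and SSEA1+ cells (2 samples each, from days 6 and 9), and in GFP+ cells of day 12 (2 samples each). The sorted populations came from an inducible lentiviral OSKM system. At day 10, CTCF overexpression with Smarca5 shRNA, CTCF overexpression alone and an overexpression control were compared, and at day 12, unsorted cells with Smarca5 shRNA and with control shRNA, each with 2 samples. CTCF is the zinc finger protein of domain borders and insulators, and Smarca5 is the ATPase of ISWI remodelling complexes. Lists pooled over days cannot separate a population from its day of collection.

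Each list states only whether a peak was called, and its score column was 0 throughout. With 1 list per group there was no replicate check, so no p-value was computed, and intervals are exact Clopper-Pearson 95% intervals that cover counting error over sites only. List lengths ran from 43618 merged peaks in day 12 control cells to 213386 in Thy1+ cells with CTCF shRNA, and the read depth behind them is unknown. Sites within 10 kb of 8 fibroblast marker genes numbered 84, 89, 61, 80 and 36 with CTCF shRNA, against 77, 90, 57, 40 and 28 with control shRNA, from day 0 through Thy1+, SSEA1-Thy1- and SSEA1+ to GFP+ cells. Those near 8 pluripotency genes numbered 30, 57, 52, 52 and 63 with CTCF shRNA, against 29, 46, 42, 51 and 64 with control shRNA. No site was listed near Fap, a fibroblast protease, in either GFP+ list. The SSEA1+ list with CTCF shRNA thus stood near the day 0 lists at fibroblast genes. It also held 34 haematopoietic and 42 endothelial marker sites, against 22 and 26 in the SSEA1+ control list. Every result that rests on the SSEA1+ CTCF shRNA list is given with that reservation, and the part of these cells or of depth in it was not tested.

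The reference lists 15 transcription starts for the 8 genes. The 300 bases around 5 of them are shown because they carry the contrast at the starts: all 3 starts of Dnmt3l, the upstream start of Dnmt1, at which no list held a peak, and the downstream start of Dnmt1, at which every list did. The sequences are RefSeq's for GRCm38.p6, from 250 bases before to 50 bases after the start on the gene's strand, 5′ to 3′, with every CpG in capitals.
Dnmt3l start 1, chr10:78042037-78042336, plus strand, 6 CpGs: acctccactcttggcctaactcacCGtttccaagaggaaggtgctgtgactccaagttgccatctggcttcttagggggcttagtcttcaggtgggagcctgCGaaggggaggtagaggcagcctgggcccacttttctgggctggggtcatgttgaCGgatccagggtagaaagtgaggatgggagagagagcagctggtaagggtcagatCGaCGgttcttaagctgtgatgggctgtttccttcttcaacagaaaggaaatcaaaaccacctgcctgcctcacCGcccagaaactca
Dnmt3l start 2, chr10:78049592-78049891, plus strand, 4 CpGs: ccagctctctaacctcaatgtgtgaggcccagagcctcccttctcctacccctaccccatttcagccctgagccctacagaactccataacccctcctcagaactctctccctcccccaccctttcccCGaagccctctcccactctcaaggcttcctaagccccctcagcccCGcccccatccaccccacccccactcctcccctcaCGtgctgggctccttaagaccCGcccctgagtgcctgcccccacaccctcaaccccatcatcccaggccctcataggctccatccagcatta
Dnmt3l start 3, chr10:78055085-78055384, plus strand, 3 CpGs: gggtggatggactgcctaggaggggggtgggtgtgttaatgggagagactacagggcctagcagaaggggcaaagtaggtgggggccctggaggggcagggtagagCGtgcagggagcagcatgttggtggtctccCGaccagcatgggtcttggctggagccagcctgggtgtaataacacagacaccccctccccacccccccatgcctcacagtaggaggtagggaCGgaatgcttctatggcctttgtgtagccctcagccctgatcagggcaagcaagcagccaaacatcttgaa
Dnmt1 start 1, chr9:20959839-20960138, minus strand, 2 CpGs: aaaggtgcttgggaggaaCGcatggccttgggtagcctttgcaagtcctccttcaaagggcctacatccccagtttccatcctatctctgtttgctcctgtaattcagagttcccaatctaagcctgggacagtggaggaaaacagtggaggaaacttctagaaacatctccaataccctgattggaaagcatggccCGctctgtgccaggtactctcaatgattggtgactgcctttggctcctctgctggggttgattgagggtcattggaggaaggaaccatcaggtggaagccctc
Dnmt1 start 3, chr9:20952574-20952873, minus strand, 33 CpGs: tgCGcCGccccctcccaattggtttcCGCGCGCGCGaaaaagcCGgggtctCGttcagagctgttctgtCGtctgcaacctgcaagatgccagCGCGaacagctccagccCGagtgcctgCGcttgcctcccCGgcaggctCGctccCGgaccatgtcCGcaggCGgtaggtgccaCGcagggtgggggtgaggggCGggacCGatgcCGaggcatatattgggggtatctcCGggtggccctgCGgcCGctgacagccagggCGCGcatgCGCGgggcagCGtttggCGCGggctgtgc

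Starts with many CpGs were open in every list, and the starts that differed between lists were poor in CpGs. All 11 starts with 12 or more CpGs in these 300 bases had a peak within 1 kb in all 15 lists. They ranged from 12 CpGs at Dnmt1 start 2 and Uhrf1 start 1 to 57 at Tet2, and they included start 3 of Dnmt3a, the internal start known to make the shorter Dnmt3a2 isoform of stem cells. The other 4 starts held 2 to 6 CpGs. Over all 32851 starts of the reference, a peak in all 15 lists was found for 93.6% of those with 20 or more CpGs, 72% with 10 to 19, 21.6% with 5 to 9 and 4.3% with under 5, and for 42.6% of all.

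Within 1 kb, Dnmt3l was the one gene of the 8 with a start called in some lists and not in others. Within 2500 bp, Dnmt1 start 1 had a peak in 5 lists, Dnmt3l start 1 in 15 and Dnmt3l start 2 in 12. A peak 77 bases downstream of its start 2, at chr10:78049720-78050119, was held in both GFP+ lists and in none of the other 13. Of all starts, 331 (1.01%) had a peak within 1 kb in both GFP+ lists and in none of the 8 day 0, Thy1+, SSEA1-Thy1- and SSEA1+ lists. Start 3 had a peak in the 10 day 0 and sorted lists and in both day 12 lists, but in no day 10 list. The day 12 peak there, chr10:78054719-78055118, did not overlap the others, whose positions were called apart. Start 1 was reached in 2 lists, those of day 12, and only by the edge of the site at the start of the neighbour Aire.

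**Figure D1:**
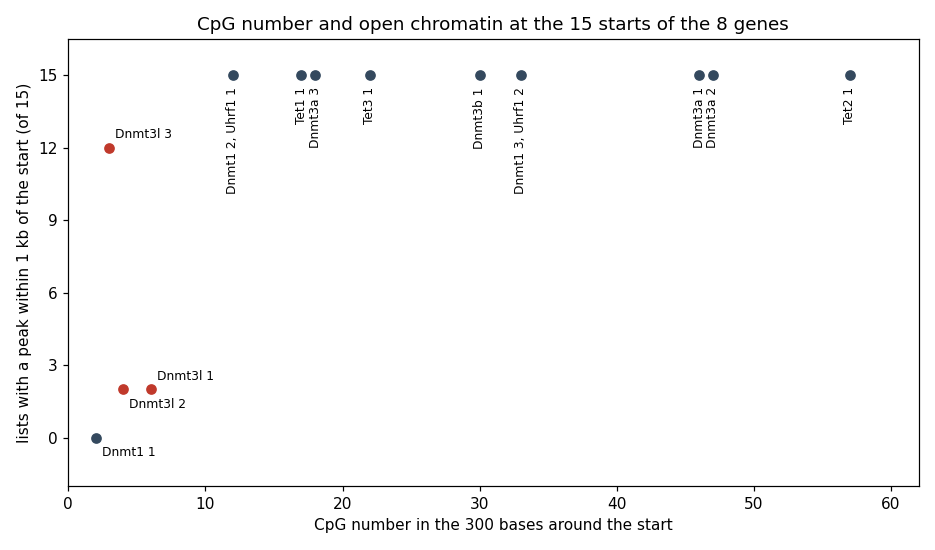
Number of CpGs in the 300 bases around each of the 15 starts (x axis) against the number of the 15 lists with a peak within 1 kb (y axis), with each point labelled by gene and start number and Dnmt3l in red. The 11 starts with 12 or more CpGs lie at 15 lists, while the Dnmt3l starts lie at 2, 2 and 12 and the upstream Dnmt1 start at 0.

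A search of the same 300 bases on both strands found the Klf motif GGGNGGGG at 11 of the 15 starts, against 33.2% of all starts. The median of all starts is 7 CpGs, fewer than most of the 15 hold, and the part of base composition was not tested. The windows of Dnmt3a starts 1 and 2 overlap, so 1 match is counted at both. The CTCF core CACNAGNGG occurred at 1, that of Tet1, against 3.85% of all starts. The AP-1 motif TGANTCA, the octamer ATGCAAAT and the Sox motif CATTGTN occurred at 0 of the 15, against 7.81%, 1.74% and 12.5% of all starts. Overlaps between motifs were not removed, and a match describes letters, not binding.

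Between day 0 and the GFP+ state sites turned over near all 8 genes. In GFP+ cells against day 0 with CTCF shRNA, 65 of 191 sites were gained (present only in the first list of a pair) and 41 were lost (present only in the second), that is 34% (interval 27.3 to 41.2) and 21.5% (15.9 to 28). Over all sites of that pair 23.5% were gained and 48.9% lost. With control shRNA 62 of 187 were gained and 45 lost, 33.2% (26.5 to 40.4) and 24.1% (18.1 to 30.8), against 21.2% and 53.3% of all sites. All sites were taken at any distance from a gene, and the part of nearness to genes was not tested.

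Sites were also sorted by their presence over the 10 day 0 and sorted lists, of which 234 of the 248 sites were in at least 1. In all 10 lists were 67 sites (28.6%, interval 22.9 to 34.9), against 13.5% of all sites. In both GFP+ lists and neither day 0 list were 51 (21.8%, 16.7 to 27.6), against 12.2%. Of these, 16 (6.84%, 3.96 to 10.9) were in none of the 8 other lists, against 2.57%. In both day 0 lists and neither GFP+ list were 33 (14.1%, 9.91 to 19.2), against 33.1%. All sites were taken at any distance from a gene. Within 50 kb of the median protein-coding gene lay 4 sites of all 10 lists and 3 of both day 0 and neither GFP+ list. The part of nearness to genes in these contrasts was not tested. In the 6 Thy1+, SSEA1-Thy1- and SSEA1+ lists alone were 12 (5.13%, 2.68 to 8.79), against 8.04%, and in all 8 sorted lists but neither day 0 list were 18 (7.69%, 4.62 to 11.9), against 4.76%. Without the SSEA1+ CTCF shRNA list these counts were 67, 16, 12 and 18, the same as with it, for the 4 classes that use that list. Leaving out a list can only raise or keep such counts. The check thus shows only that no site was kept out of a class by that list alone.

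Distance to a start was taken for the 234 sites in at least 1 of the 10 day 0 and sorted lists. Of the 13 of these within 1 kb of a start of the 8 genes, 11 (84.6%, interval 54.6 to 98.1) were held in all 10 lists. So were 2 of 25 sites at 1 to 10 kb (8%, 0.984 to 26) and 54 of 196 farther away (27.6%, 21.4 to 34.4). The share was thus lowest at 1 to 10 kb and did not follow this distance in order. Distance was taken only to starts of the 8 genes, so the sites farther away include those at starts of other genes. Of the 248 sites, 22 lay within 1 kb of the start of another gene only.

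Tet2 (GeneID 214133, chr3:133463677-133545136, minus strand) had, of the 8 genes, the most sites that appeared by the Thy1+ stage and were then held throughout. It had 10, 23, 22, 23 and 17 sites with CTCF shRNA, against 7, 21, 20, 19 and 15 with control shRNA, at day 0 and in Thy1+, SSEA1-Thy1-, SSEA1+ and GFP+ cells. The log2 ratio of sites (with 1 added to each count) in Thy1+ cells against day 0 was 1.13 with CTCF shRNA and 1.46 with control shRNA, at the 95.9th and 99.1st percentile of all genes, whose medians were 0.39 and 0.30. No other protein-coding gene lay within its window.

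Of the 29 Tet2 sites, 11 were absent from both day 0 lists and present in all 8 sorted lists. Among 21883 protein-coding genes, 14 (0.064%) had as many such sites or more, and the median gene had 1. Inside the gene lay 7 of them, at 11.2, 26.9, 28.7, 34.1, 37.6, 52.7 and 76.8 kb downstream of the start, 3 lay upstream at 5.57, 15.5 and 27.8 kb, and 1 lay beyond the 3′ end. At day 10 the lists held 9 of the 11 with CTCF overexpression and Smarca5 shRNA, 8 with CTCF overexpression and 10 in the control, against 55.6%, 58.9% and 61.3% of all such sites in the same order. Each unsorted day 12 list held 1 of the 11, against 23.5% (Smarca5 shRNA) and 21.6% (control) of all such sites in the series. The start itself, chr3:133544166-133544621, was in all 15 lists and was the one Tet2 site of which that held.

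Later and reverse patterns at Tet2 were fewer. The site 10.2 kb downstream was absent until the SSEA1+ stage and was in both SSEA1+, both GFP+, all day 10 and both day 12 lists. A site 35.3 kb upstream was in the GFP+ lists alone. Sites in both day 0 lists and neither GFP+ list numbered 5, of which the 3 nearest to the start lay at 2.12 kb downstream (otherwise in the Thy1+ control list alone), 16.7 kb downstream (day 0 lists alone) and at 45.7 kb upstream (day 0 and Thy1+ lists alone).

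Tet1 (GeneID 52463, chr10:62804570-62887469, minus strand), the abundant Tet enzyme of stem cells, gained sites around its start in GFP+ cells. It had 10, 16, 14, 19 and 14 sites with CTCF shRNA, against 12, 15, 15, 12 and 20 with control shRNA, along the same order. In GFP+ cells against day 0 the log2 ratio was 0.45 with CTCF shRNA and 0.69 with control shRNA, while the medians of all genes were -0.15 and -0.24. Against SSEA1+ cells the GFP+ ratio was -0.42 with CTCF shRNA and 0.69 with control shRNA, where the medians were -0.44 and -0.26. Sites of the GFP+ lists alone lay 9.24 and 38.4 kb downstream and 15.7 kb upstream of the start, and 876 genes (4% of all) had 3 or more such sites.

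A further 3 Tet1 sites were in both GFP+ lists and neither day 0 list. The site 5.72 kb upstream was in all 8 sorted lists, both day 12 lists and 2 of the 3 day 10 lists. The site 9.75 kb upstream was also in the Thy1+ and SSEA1+ lists with CTCF shRNA but in neither of their controls. The site 10.9 kb upstream was likewise in the Thy1+ and SSEA1-Thy1- lists with CTCF shRNA alone. The 1 site lost between day 0 and GFP+ with both shRNAs lay 27.2 kb upstream. The Tet1 start, chr10:62887183-62887611, and the site 1.14 kb downstream were in all 15 lists.

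Tet3 (GeneID 194388, chr6:83362373-83457208, minus strand) held fewer sites in GFP+ cells than in SSEA1+ cells with both shRNAs. It had 19, 31, 28, 29 and 16 sites with CTCF shRNA, against 19, 28, 28, 26 and 11 with control shRNA. In GFP+ cells against SSEA1+ cells the log2 ratio was -0.82 with CTCF shRNA and -1.17 with control shRNA, against medians of -0.44 and -0.26. The Tet3 values lay at the 26.4th and 8.44th percentile of all genes. Against day 0 the GFP+ ratio was -0.23 with CTCF shRNA and -0.74 with control shRNA, at the 44.3rd and 25.3rd percentile.

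Of its 40 sites, 6 were in all 6 Thy1+, SSEA1-Thy1- and SSEA1+ lists and in neither day 0 nor GFP+ lists, and 602 genes (2.75%) had 6 or more of these. They lay at 21.1, 23.0, 46.3 and 62.9 kb inside the gene, 20.2 kb upstream, and 105 kb downstream in Mob1a. The day 10 lists held 1 of them with CTCF overexpression and Smarca5 shRNA and 0 in each of the other 2, and the day 12 lists held 0. Of all such sites in the series, 17.3% were held at day 10 with CTCF overexpression and Smarca5 shRNA, 9.94% with CTCF overexpression and 15.7% in the control, and 0.671% (Smarca5 shRNA) and 0.415% (control) at day 12, so these counts are near those shares.

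Tet3 sites in both day 0 lists and neither GFP+ list numbered 8, or 22.9%, against 33.1% of all sites. By number, 4003 genes (18.3%) had 8 or more such sites, and the median gene had 3. Of the 8 Tet3 sites, the 3 nearest to the start lay at 17.6, 24.0 and 25.1 kb inside the gene. All 3 were in both Thy1+ lists, and the site at 24.0 kb was also in all SSEA1-Thy1- and SSEA1+ lists. A single Tet3 site, 19.7 kb inside the gene, was in both GFP+ lists and neither day 0 list, and it was already in every SSEA1-Thy1- and SSEA1+ list. The start peak, chr6:83441465-83441875, and a site 15.1 kb upstream of it, at the upstream end of the gene body, were in all 15 lists.

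**Figure D2:**
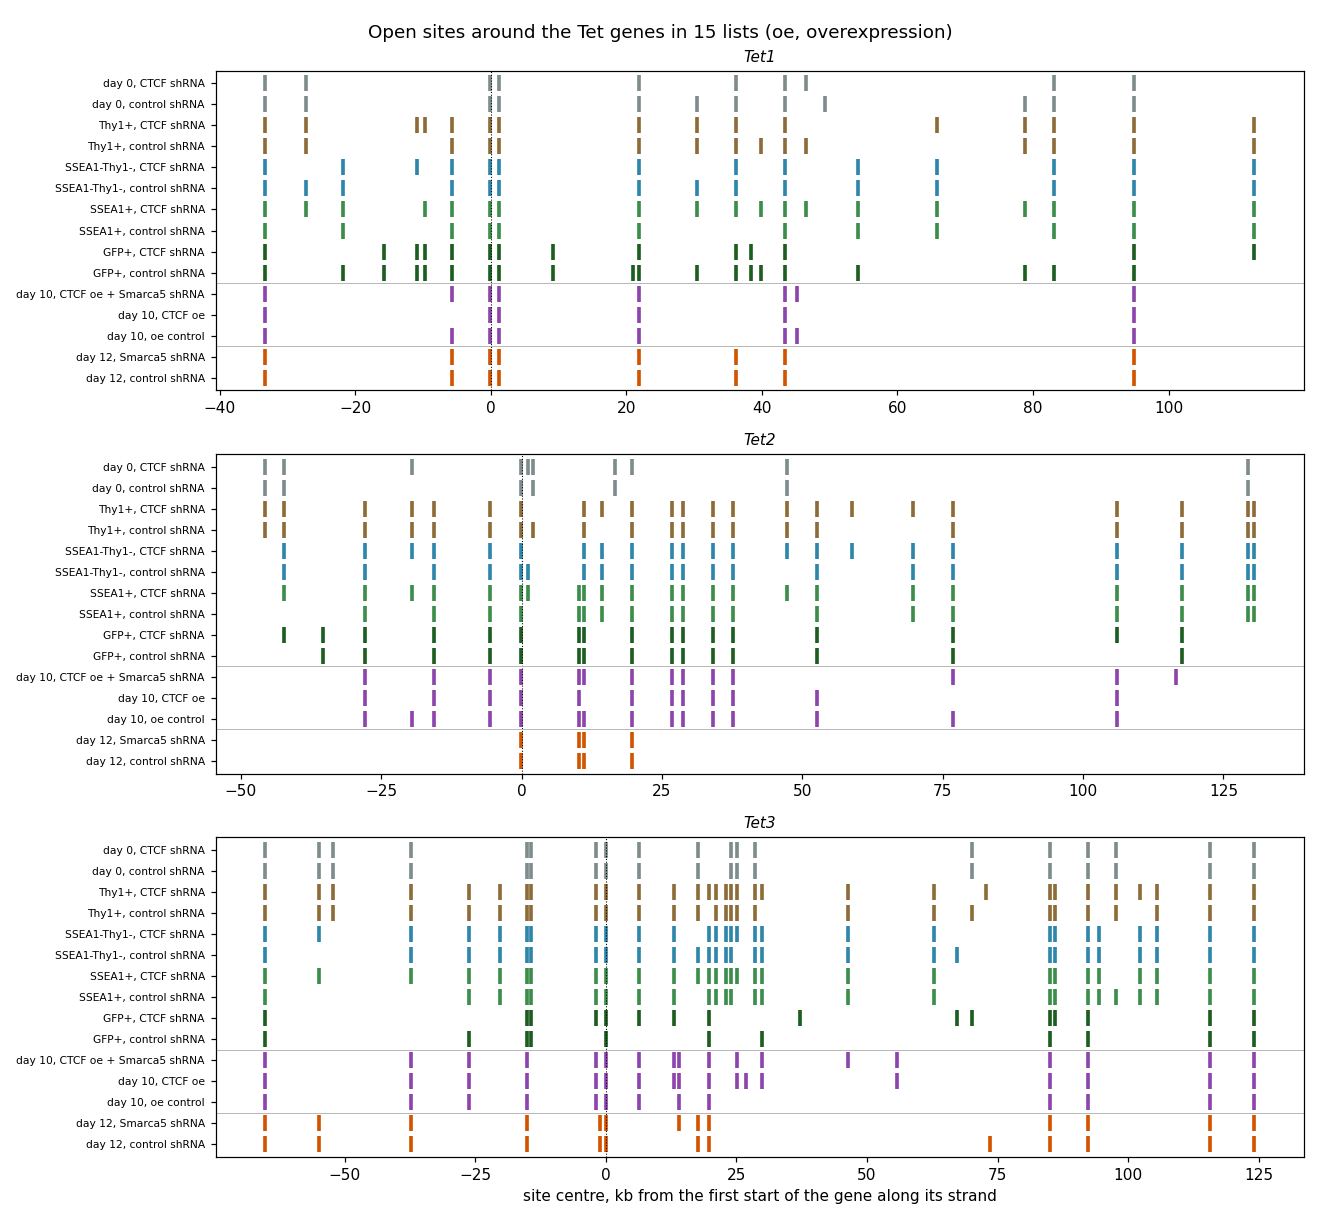
Presence of each open site around Tet1, Tet2 and Tet3 in the 15 lists (rows), by the distance of its centre from the start in kb (x axis, positive downstream; dotted line, start), with a tick of fixed width for each site a list holds and colours for the stage. The Tet2 array of 11 sites is missing from both day 0 rows and present in all 8 sorted rows, and the 6 Tet3 sites of the intermediate rows are missing from both GFP+ rows.

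Dnmt1 and Uhrf1, the maintenance pair, had by number the most sites held in all 10 lists among the 8 genes. Dnmt1 (GeneID 13433, chr9:20907206-20959888, minus strand) had 23, 28, 22, 24 and 23 sites with CTCF shRNA, against 22, 25, 21, 19 and 20 with control shRNA. Uhrf1 (GeneID 18140, chr17:56303337-56323486, plus strand) had 20, 26, 24, 24 and 19 with CTCF shRNA, against 20, 24, 23, 23 and 19 with control shRNA. In all 10 day 0 and sorted lists were 11 Dnmt1 and 15 Uhrf1 sites, and 6.12% and 0.905% of all genes had as many such sites or more. Dnmt3a had 10. As a share of the sites of each gene in these lists, Uhrf1 had 51.7% and Dnmt1 33.3%. The share of Dnmt1 was below those of Dnmt3b, 40.9%, and Dnmt3l, 35%. The neighbourhood of Uhrf1 is dense in genes, and 3 of its 30 sites lay in its own body.

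Dnmt1 was constant at starts 2 and 3, had no peak within 1 kb of start 1, and had nearby sites that were lost. Its starts 2 and 3 share the site chr9:20952586-20953155, present in all 15 lists. The site at chr9:20951441-20951866, 970 bases downstream of start 3, was in both day 0 and both Thy1+ lists and in neither GFP+ list. In the SSEA1-Thy1- and SSEA1+ cells it was in the CTCF shRNA list and not in the control list. It was 1 of 7 Dnmt1 sites in both day 0 lists and neither GFP+ list. These were 21.2% of the Dnmt1 sites in the day 0 and sorted lists, below the 33.1% of all sites. By number, 5112 genes (23.4%) had 7 or more such sites, and the median gene had 3. The next nearest of these Dnmt1 sites lay 1.95 and 6.24 kb upstream of start 1. Sites in both GFP+ lists and neither day 0 list numbered 5, of which those 19.2 and 28.2 kb upstream were in the GFP+ lists alone and that 38.8 kb downstream was in all 8 sorted lists.

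At Uhrf1 both start sites, chr17:56303087-56303528 and chr17:56303979-56304416, were in all 15 lists. The 2 sites in both GFP+ and neither day 0 list lay 15.3 kb upstream in Plin3, with GFP+ as its only sorted stage, and 39.7 kb downstream in Kdm4b, in all sorted lists. Both were also in all 3 day 10 lists. Lost with both shRNAs were sites 30.9 and 36.5 kb downstream in Kdm4b and 36.9 kb upstream.

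Dnmt3a (GeneID 13435, chr12:3801559-3914443, plus strand) had the most sites of the 8 genes, 44, and its starts were constant while sites between them turned over. It had 24, 31, 27, 31 and 28 sites with CTCF shRNA, against 24, 30, 29, 22 and 25 with control shRNA. Sites in both GFP+ lists and neither day 0 list numbered 9, or 21.4%, against 12.2% of all sites. The nearest lay around start 3: 1.69 kb upstream, in both SSEA1-Thy1-, both GFP+ and all 3 day 10 lists, and 5.61 kb downstream, in the GFP+ lists alone. Upstream of start 1, a site at 11.3 kb was in the SSEA1+ and GFP+ lists alone. The other site of the GFP+ lists alone was at the start of the neighbour Pomc. Sites lost with both shRNAs numbered 5, or 11.9%, against 33.1% of all sites, and 38.7% of genes had 5 or more. The nearest lay 24.9 and 37.1 kb upstream of start 3 and 39.6 kb downstream of start 2.

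Dnmt3b (GeneID 13436, chr2:153649411-153687730, plus strand), the de novo enzyme of stem cells and the early embryo, had 10, 16, 14, 15 and 17 sites with CTCF shRNA, against 10, 16, 13, 14 and 16 with control shRNA. The totals of the 2 shRNAs differed by at most 1 at each stage, although 2 sites were gained and 2 lost in Thy1+ cells and 2 gained and 1 lost in SSEA1+ cells. Its start peak, chr2:153649227-153649880, was in all 15 lists. Sites in both GFP+ lists and neither day 0 list numbered 7. Of these, 4 were in no other sorted list, and 298 genes (1.36%) had 4 or more such sites. They lay 2.37 kb downstream and 6.28, 9.94 and 37.6 kb upstream of the start. The day 10 lists held 0 of the 4 with CTCF overexpression and Smarca5 shRNA, 1 with CTCF overexpression and 2 in the control, where 5.15%, 13.9% and 14.3% of all such sites were held in the same order. A single site, 42.5 kb upstream, was in both day 0 lists and neither GFP+ list.

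Dnmt3l (GeneID 54427, chr10:78042287-78063622, plus strand), the cofactor, had 10, 14, 14, 12 and 16 sites with CTCF shRNA, against 11, 12, 13, 11 and 16 with control shRNA. In GFP+ cells against SSEA1+ cells the log2 ratio was 0.39 with CTCF shRNA and 0.50 with control shRNA, at the 95.9th and 94.9th percentile of all genes. Sites in both GFP+ lists and neither day 0 list numbered 8. Besides the peak at start 2, whose 300 bases are shown above, the sites of the GFP+ lists alone lay 22.1 kb upstream of start 1 and 29.6 kb downstream of start 3. A site 1.48 kb upstream of start 2 had appeared by the SSEA1-Thy1- stage and was in every later, day 10 and day 12 list, and in the Thy1+ list with CTCF shRNA but not its control. A site 12.1 kb downstream of start 3 was in all 8 sorted lists. Lost with both shRNAs were 3 sites, 24.8, 36.7 and 49.4 kb downstream.

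**Figure D3:**
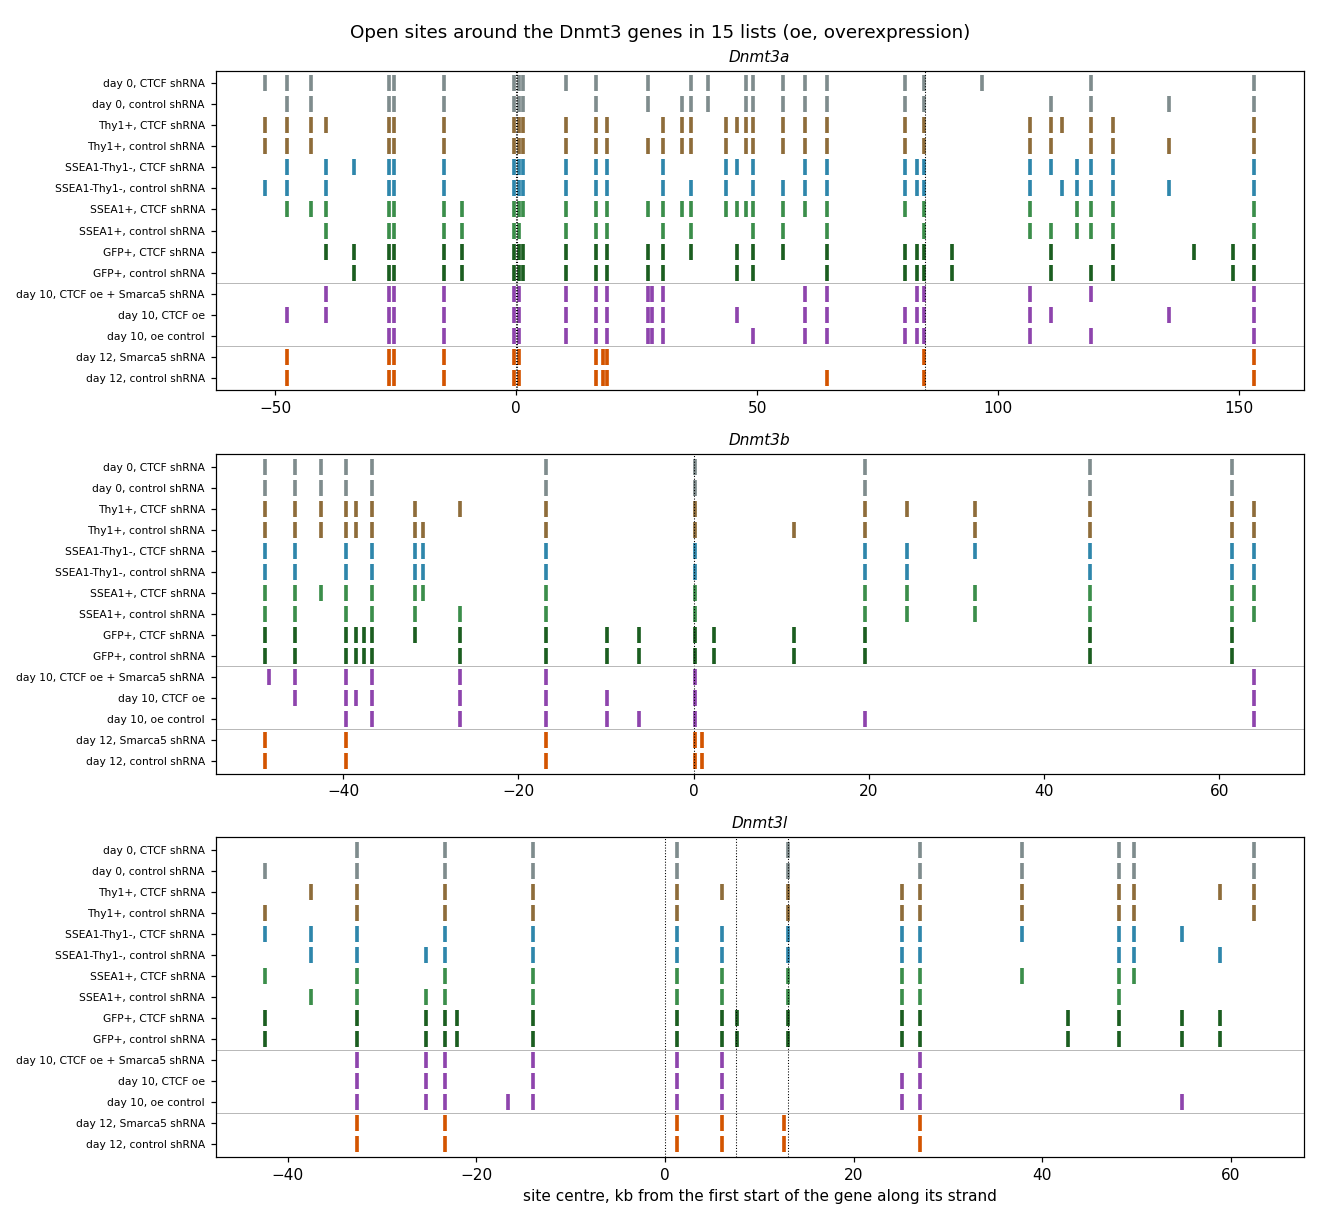
Presence of each open site around Dnmt3a, Dnmt3b and Dnmt3l in the 15 lists (rows), by the distance of its centre from the first start in kb (x axis, positive downstream; dotted lines, starts), with a tick of fixed width for each site a list holds. The 4 Dnmt3b sites around the start and the Dnmt3l site at its second start appear in the GFP+ rows and in no other sorted row.

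**Figure D4:**
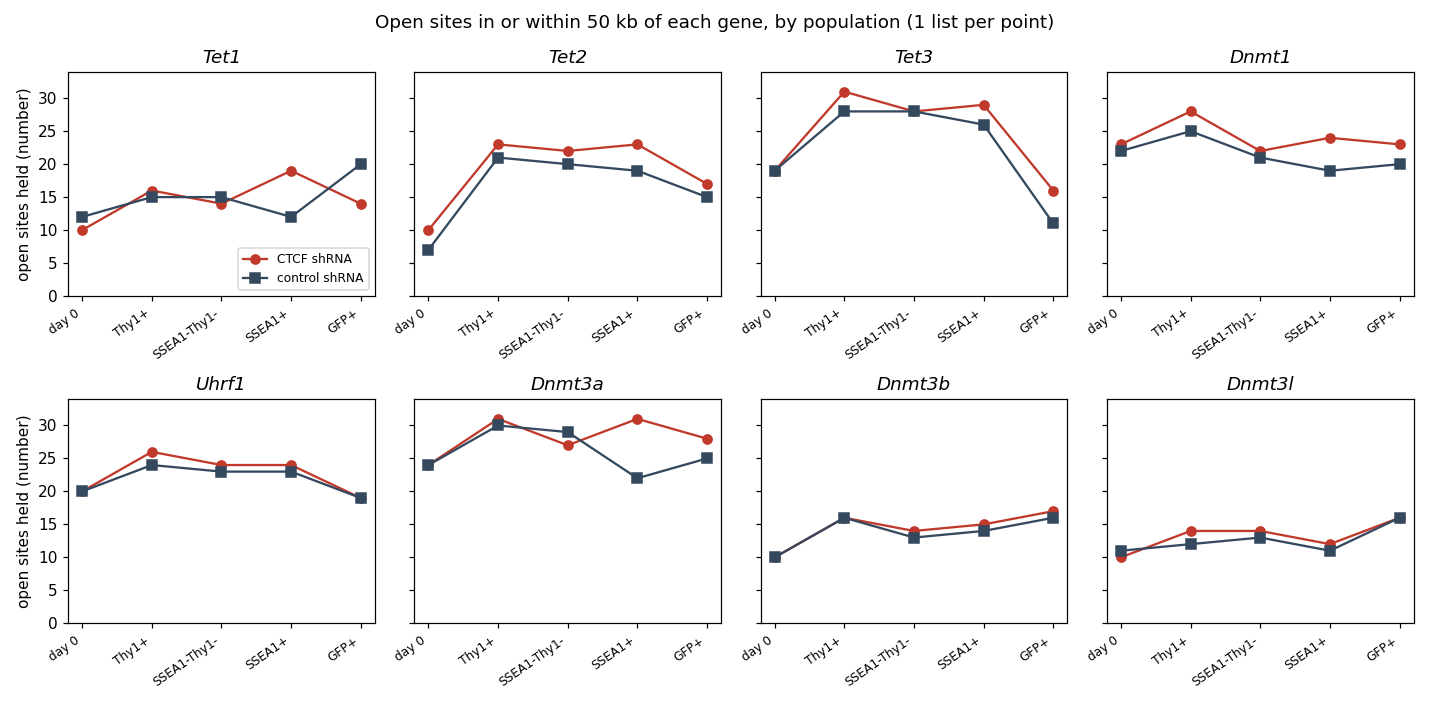
Number of open sites held in or within 50 kb of each gene (y axis) from day 0 to GFP+ cells (x axis), with CTCF shRNA (red circles) and control shRNA (blue squares), 1 list per point. Tet2 stands at 10 sites with CTCF shRNA and 7 with control shRNA at day 0, and at 23 and 21 in the same order in Thy1+ cells, while Tet3 ends at 16 with CTCF shRNA and 11 with control shRNA in GFP+ cells.

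CTCF shRNA was compared with control shRNA at 5 stages to ask how the knockdown altered open chromatin. At these 8 genes the gains outnumbered the losses at every stage, as they did over all sites. At day 0, 9 of 134 sites (6.72%, interval 3.12 to 12.4) were gained and 8 (5.97%, 2.61 to 11.4) lost, against 4.64% and 4.23% of all sites. In Thy1+ cells 24 of 195 (12.3%, 8.05 to 17.8) were gained and 10 (5.13%, 2.49 to 9.23) lost, against 15.2% and 6.96%. In SSEA1-Thy1- cells 18 of 180 (10%, 6.04 to 15.3) were gained and 15 (8.33%, 4.74 to 13.4) lost, against 14.6% and 7.46%.

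The SSEA1+ pair had the largest gained share of the 5. There 38 of 184 sites (20.7%, interval 15 to 27.2) were gained and 7 (3.8%, 1.54 to 7.68) lost, against 30.2% and 5.58% of all sites. Dnmt3a had 10 of these gains, Dnmt1 7 and Tet1 7. As shares of the sites of each gene these were 31.2% (16.1 to 50), 26.9% (11.6 to 47.8) and 36.8% (16.3 to 61.6). Each interval includes the 30.2% of all sites. Of the 38 gained sites, 28 (73.7%) were in the day 0 control list and 34 (89.5%) in the Thy1+ control list, against 81.6% and 89% over all gained sites. In the GFP+ control list were 11 (28.9%), against 12.2% over all gained sites. Fibroblast marker genes had 80 sites in this CTCF shRNA list and 40 in its control, and the part of that difference in the gains was not tested. In GFP+ cells 21 of 163 sites (12.9%, 8.16 to 19) were gained and 13 (7.98%, 4.31 to 13.3) lost, against 21.6% and 11.2%.

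Individual genes were uneven in the GFP+ pair. Tet3 had 7 sites gained and 2 lost, and its log2 ratio of 0.50 was at the 91.2nd percentile of all genes. Tet1 had 1 gained and 7 lost, with a log2 ratio of -0.49 at the 2.73rd percentile, against a median of 0.08. Fibroblast markers had 36 sites in the GFP+ list with CTCF shRNA and 28 in its control.

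**Figure D5:**
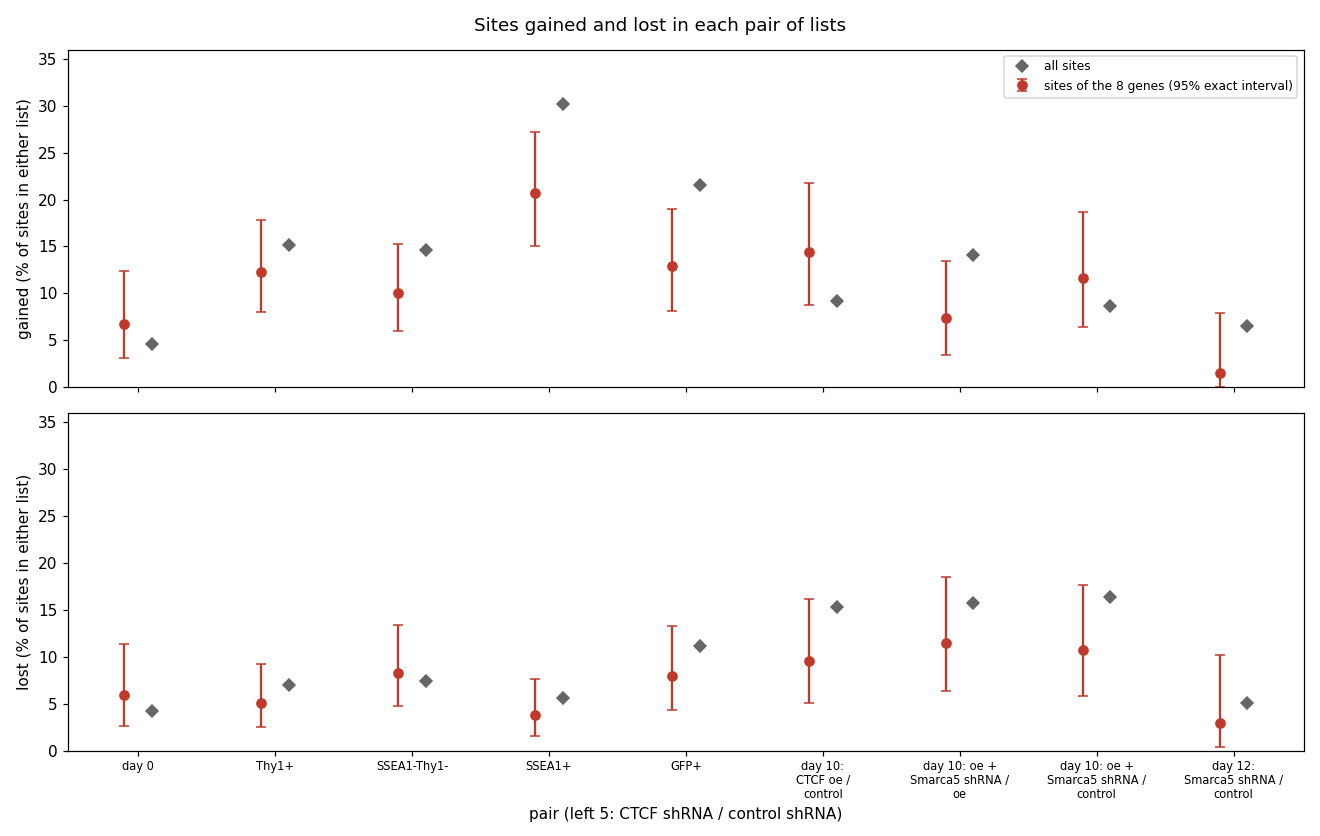
Share of sites gained (upper) and lost (lower) in each pair of lists (y axis, percent of the sites in either list) for the sites of the 8 genes (red, with exact 95% interval) and for all sites (grey diamonds). In SSEA1+ cells 20.7% of the sites of the 8 genes were gained, against 30.2% of all sites, and at day 12 the shares were 1.47% gained and 2.94% lost.

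Few single sites were gained, or lost, in at least 3 of the 5 CTCF shRNA pairs. Gained in 3 or more were 3 of the 234 sites, near the share of 1.21% of all sites. They lay 19.5 kb upstream of Tet2 at chr3:133563640-133564079, 24.7 kb downstream of Dnmt1 start 3 at chr9:20927770-20928169, and in the Dnmt3a body at chr12:3852532-3853006. Without the SSEA1+ CTCF shRNA list 0 sites were gained in 3 or more. Lost in 3 or more were 2 of 234, against 0.205% of all sites, and without that list they were also 2. They were the Tet1 body site chr10:62856717-62857116, 30.4 kb downstream of the start, which was gained in the SSEA1+ pair, and the site chr12:3942106-3942669 beyond the 3′ end of Dnmt3a.

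At day 10, CTCF overexpression gained 18 and lost 12 of 125 sites against its control, 14.4% (interval 8.76 to 21.8) and 9.6% (5.06 to 16.2), where 9.23% of all sites were gained and 15.3% lost. Tet3 had 18 sites, against 13 in the control, and Tet2 had 12, against 15. Adding Smarca5 shRNA to CTCF overexpression gained 9 and lost 14 of 122, 7.38% (3.43 to 13.5) and 11.5% (6.42 to 18.5), against 14.1% and 15.7% of all sites. CTCF overexpression with Smarca5 shRNA against the control gained 14 and lost 13 of 121, 11.6% (6.47 to 18.7) and 10.7% (5.85 to 17.7), against 8.69% and 16.4%. These 3 pairs share lists, so each is given on its own.

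A site could be lost with CTCF overexpression and be back with Smarca5 shRNA. This held for 6 of the 128 sites in any day 10 list, against 8.27% of all sites. At Tet1 they were chr10:62841913-62842312 in the gene body and chr10:62892717-62893382, 5.72 kb upstream of the start. At Tet2 they were chr3:133467407-133467849 and chr3:133532874-133533563, both of the array of 11. The remaining ones were chr17:56357402-56357975 in Kdm4b near Uhrf1 and chr12:3926089-3926510 beyond Dnmt3a. None lay at a start of the 8 genes.

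The reverse, gained with CTCF overexpression and gone with Smarca5 shRNA, held for 7 of the 128, near the 5.54% of all sites. The sites are thus listed without an excess over that share. Dnmt3a had 4 of them: chr12:3759244-3759732 in Dtnb, chr12:3852532-3853006 in its body, and chr12:3917762-3918224 and chr12:3942106-3942669 beyond its end. The body site was among those gained in 3 CTCF shRNA pairs, and the last was among those lost in 3. The others were chr6:83414641-83415040 in Tet3, chr17:56371988-56372468 in Kdm4b and chr2:153610700-153611168 upstream of Dnmt3b.

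At day 12, Smarca5 shRNA gained 1 and lost 2 of 68 sites against control shRNA, 1.47% (interval 0.0372 to 7.92) and 2.94% (0.358 to 10.2), against 6.48% and 5.04% of all sites. The gain and 1 loss were in Tet3 and the other loss in Dnmt3a, and the remaining 6 genes had the same sites in both lists. The day 12 lists are the shortest of the series, with 66 sites (Smarca5 shRNA) and 67 (control) of the 248, so an absent site there was not called at that list's threshold and depth.

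Partners and readers of DNA methylation were taken from a list of 30 genes, among them the glycosylase Tdg, the Gadd45 genes, methyl-CpG binding proteins such as Mbd3 and Mbd4, the Uhrf1 relative Uhrf2 and the helicase gene Hells. All 23 with a start in the reference had a start peak in all 15 lists, so 0 of 23 gained and 0 lost one in each of the 11 pairs. Over the 27025 genes with a start, 48.4% to 61.3% had a start peak, depending on the list, and over the 11 pairs 0.537% to 5.67% gained one and 0.699% to 6.05% lost one. With CTCF shRNA against control shRNA, more sites were held near 15, 20, 18, 25 and 15 of the 30 genes and fewer near 4, 3, 5, 3 and 9, from day 0 to GFP+ cells. Of all 21883 protein-coding genes, 26.3%, 55.8%, 48.7%, 71.9% and 48% had more sites in these pairs and 22%, 16.7%, 18.7%, 7.15% and 19.4% fewer, so an excess of genes with more sites was general. In GFP+ cells against day 0, 11 had more and 14 fewer with CTCF shRNA, and 14 had more and 13 fewer with control shRNA, where 31.5% and 26.7% of all genes had more and 52.1% and 57.5% fewer, in the same order. At day 10, 6 had more and 12 fewer with CTCF overexpression than in the control, 10 had more and 11 fewer after Smarca5 shRNA was added, and 7 had more and 14 fewer with both than in the control. Of all genes, 26.1%, 22% and 16.3% had more and 31.2%, 39.6% and 42.3% fewer in these pairs. At day 12, 3 had more and 3 fewer with Smarca5 shRNA, against 14.9% and 12.7% of all genes.

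The window's edge was set by distance alone. Of the 12 sites between 45 and 50 kb from a gene body, 7 were held in all 10 day 0 and sorted lists, as were 2 of the 11 sites between 50 and 55 kb, just outside.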

How the data were processed

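ATAC-seq peak lists of 15 groups (32 samples) were used. The tools named per the submitters' processing notes are MACS2, Bowtie2, Picard, SAMtools, cutadapt, Trim Galore and FastQC, and the builds are mm10 and GRCm38. Their versions, the peak threshold, any read shift for the transposase and the way samples were combined: not given in the sources used here. Intervals of 400 bp were deposited by the authors, and the deposited score column is 0 throughout, so peaks could not be ranked or filtered. Read depth is unknown, and longer lists may reflect depth or the number of samples.

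Peaks of all lists were merged at 1 bp of overlap into sites, and a list held a site when 1 of its peaks overlapped it. Positions were called apart for the day 0 and sorted lists, the day 10 lists and the day 12 lists, so pairs stay within these sets. Shares of all sites include sites at any distance from a gene. Gene positions and 32851 starts came from RefSeq tables of GRCm38.p6; sequence was used only for the 300 bases around each start, and exon and UTR annotation was not used. A start peak lay within 1 kb of a start. Log2 ratios compare site numbers with 1 added. Counts were tested on simulated lists. Python 3.11.15, pandas 2.3.3, scipy 1.17.1 and matplotlib 3.10.9 were used.

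The members, lists and rules were chosen with earlier results of these data known. All 8 genes are named. Single sites are named at their starts, when gained or lost in at least 3 CTCF shRNA pairs, when changed in both directions at day 10, or as the 3 nearest to a start that differ between both GFP+ and both day 0 lists; the Tet2 array, the Tet3 intermediate sites and the sites of the GFP+ lists alone were named after their values were seen. Alternatives were an overlap of 200 bp, windows of 20 and 100 kb, the nearest gene only, merging within the pair, a peak centre inside the site, start windows of 500 and 2500 bp, and leaving out the SSEA1+ CTCF shRNA list.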

Additional observations from a re-analysis of the deposited data

Results flagged for a closer look

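Tet1 was the one gene of the 8 with opposite net numbers of at least 5 sites between stages. With CTCF shRNA against control shRNA its net number (gained minus lost) was 7 in SSEA1+ cells, where it held 19 sites with CTCF shRNA and 12 with control shRNA, and -6 in GFP+ cells, where it held 14 with CTCF shRNA and 20 with control shRNA. The difference between the stages was not tested, since each value comes from 1 pair of lists. The log2 ratio of Tet1 sites was 0.62 in the SSEA1+ pair and -0.49 in the GFP+ pair, against medians of 0.26 and 0.08 over all genes. Fibroblast marker genes held 80 sites in the SSEA1+ list with CTCF shRNA and 40 in its control, and their part in the Tet1 value was not tested.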

How the results depend on the processing

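Of 140 recomputed shares and counts, 137 kept their size under the alternatives, that is within the exact interval for a share and within 1.5 times for a count. Among them, counts of site classes without the SSEA1+ CTCF shRNA list could only rise or stay. The alternative of a peak centre inside the site could not change a share, since each site contains its peaks whole. Merging within the pair gave the same shares as the main setting in every pair. The number that kept their size thus includes values that were fixed in advance. With sites limited to those whose nearest gene was the assigned one, 0.98% (1 of 102) were lost in the SSEA1+ pair in place of 3.8%, and 41.8% (41 of 98) were gained in GFP+ cells against day 0 with control shRNA in place of 33.2%. Without the SSEA1+ CTCF shRNA list, an alternative chosen after seeing the data, 0 sites were gained in 3 or more CTCF shRNA pairs in place of 3. The cause of these moves was not tested, apart from the smaller number of sites or pairs each leaves. Of 30 start counts 26 kept their size. A wider window can only raise or keep a start count, and a narrower one can only lower or keep it. Starts with a peak in all 15 lists thus could not change at 2500 bp, nor could Dnmt1 start 1, with 0 lists, at 500 bp. At 500 and 2500 bp, Dnmt3l start 1 had a peak in 0 and 15 lists. At 2500 bp, Dnmt3l start 2 had one in 12 lists and Dnmt1 start 1 in 5. A stricter peak threshold was not run because every score is 0, and leaving out a replicate was not run because each group has 1 list. No paired analysis was possible because the result comes from no test. Depth is unknown, so a site missing from a list was not called there and is not shown to be closed.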
